A study of Mus musculus with 23 samples.

Results

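Xcr1, Clec9a, Cd207, Ly75, Cd24a, Btla and Cadm1 encode surface receptors that are used to mark conventional type 1 dendritic cells (cDC1) and their route to cross-presentation. These 7 genes were found by symbol among the 47729 genes of the count table, and their levels were read in all 23 libraries. RNA had been sequenced from dendritic cells (DCs) sorted from the spleens of wild type Balb/C mice, which were either untreated or labelled TLI, a treatment name that the labels do not expand. Each library was made from 1 sorted subset of 1 pool of mice, and the study compared the subsets for their gene expression. DC1a cells were sorted as CD8hi CD172-, DC1b cells as CD8Int CD172+, DC2 cells as CD8lo CD172hi and DC3 cells as CD8- CD172lo, where CD172 is the signal regulatory protein SIRP alpha. Untreated mice gave 2 pools for each subset, 8 libraries in all. TLI mice gave 4 pools, with 3 for DC2, 15 libraries in all. All groups share the strain and carry no transgene or deletion by their labels, which give no age. By the labels, batch 2 holds TLI pools 3 and 4 and batch 1 holds everything else, and what a batch was is not said.

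The cDC1 are the branch of conventional DCs that needs the transcription factors Batf3 and Irf8, takes up dead or infected cells and presents their proteins on MHC class I to CD8+ T cells. Clec9a (DNGR-1) is a C-type lectin that binds the actin skeleton of dying cells. Cd207 (langerin) and Ly75 (DEC-205) are endocytic lectins that carry bound cargo to internal compartments. Xcr1 is the chemokine receptor for Xcl1, which NK cells and activated CD8+ T cells release. Cd24a is a lipid-anchored glycoprotein used to sort cDC1 and also carried by erythroid precursors and developing B cells. Btla is an inhibitory receptor whose ligand is Tnfrsf14 (HVEM), and Cadm1 is an adhesion protein that binds Crtam on activated T cells.

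On assembly GRCm38, Xcr1 (ENSMUSG00000060509) lies at chr9:123852315-123862029 on the minus strand and Clec9a (ENSMUSG00000046080) at chr6:129408862-129424763 on the plus strand. Cd207 (ENSMUSG00000034783) lies at chr6:83671215-83677857 on the minus strand and Ly75 (ENSMUSG00000026980) at chr2:60292103-60383303 on the minus strand. Cd24a (ENSMUSG00000047139) lies at chr10:43578284-43584265, Btla (ENSMUSG00000052013) at chr16:45224315-45257670 and Cadm1 (ENSMUSG00000032076) at chr9:47530173-47857637, all on the plus strand. All 7 are protein coding. Clec9a shares 184 exonic bases with Clec1b on the same strand, and Ly75 shares 249 with Gm13571 on the opposite strand, so reads there could be counted to either gene. Of the stretches of 31 bases in Cd24a transcripts, 4.98% also occur in other genes, Gm6212 and Gm15352.

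The 250 bases upstream of the start are shown for the 3 receptors that separated DC1a from DC2 cells in untreated mice. RefSeq (GRCm38.p6) gave a promoter for 5 of the 7 genes, all but Cd24a and Cadm1. The sequences are written 5′ to 3′ on the strand of the gene, at chr6:129408612-129408861 for Clec9a, chr6:83677858-83678107 for Cd207 and chr9:123862030-123862279 for Xcr1. Capitals mark a match to the AP-1 motif TGANTCA, the core bound by AP-1 factors, the family to which Batf3 belongs.
Clec9a: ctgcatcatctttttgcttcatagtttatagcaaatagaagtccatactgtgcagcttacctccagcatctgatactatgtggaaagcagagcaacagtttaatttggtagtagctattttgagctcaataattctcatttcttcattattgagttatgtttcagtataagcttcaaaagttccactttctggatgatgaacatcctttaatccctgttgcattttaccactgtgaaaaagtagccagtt
Cd207: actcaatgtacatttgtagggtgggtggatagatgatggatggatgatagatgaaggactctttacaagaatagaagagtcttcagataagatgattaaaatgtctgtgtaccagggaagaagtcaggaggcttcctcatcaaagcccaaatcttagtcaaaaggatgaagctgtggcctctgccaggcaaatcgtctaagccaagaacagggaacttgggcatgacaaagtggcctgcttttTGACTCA
Xcr1: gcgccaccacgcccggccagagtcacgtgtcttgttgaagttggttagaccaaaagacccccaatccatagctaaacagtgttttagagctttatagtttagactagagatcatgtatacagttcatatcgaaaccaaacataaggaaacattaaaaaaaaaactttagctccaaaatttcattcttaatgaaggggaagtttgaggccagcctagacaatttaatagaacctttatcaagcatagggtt
Among the 5 promoters, searched on both strands, Cd207 alone held TGANTCA, in the 7 bases directly before its start, from position -7 to -1. The motif occurs in 6.75% of 32851 mouse promoters of the same length. The 5 windows held no match to the composite of TGANTCA followed after 4 bases by GAAA (0.0974% of promoters), which contains the AP-1 motif itself, to GGAA followed after 2 bases by GAAA (2.3%), or to GAAA followed after 2 bases by GAAA (2.98%). A match is a description of the letters only.

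Total counts per library lay between 19256447 and 36997890. Levels are given as CPM, a gene's count scaled to a common library total after TMM normalisation, and 3 counts, taken as the floor of detection, were worth 0.0861 to 0.147 CPM for counting error alone. The gate genes followed the labels in part: Cd8a was at 375 to 912 CPM in all 6 DC1a libraries, labelled CD8hi. It was below 1 CPM in all DC2 libraries, labelled CD8lo, and at 0.23 to 6.22 CPM in TLI DC3, labelled CD8-. Several libraries stood apart. Cd8a was at 0.363 CPM in TLI DC1b pool 4, against 85.4 to 352 in the other TLI DC1b pools, and at 37.9 CPM in untreated DC3 pool 2. Sirpa, which encodes CD172, was at 5.51 and 7.26 CPM in TLI DC1b pools 3 and 4 and at 8.78 CPM in TLI DC2 pool 3, against 34.0 and 282 in the other TLI DC2 pools. Plasmacytoid DC markers (11 genes) summed to 5210 and 7796 CPM in untreated DC1b and to at most 326 CPM in every other group. Erythroid markers (8 genes) summed to 18558 to 138273 CPM in the libraries of TLI pools 1 and 2 and to 51.2 to 7925 CPM in the others. Neutrophil markers (8 genes) summed to 1440 to 23274 CPM in TLI DC1b, and to 0 in untreated DC1a and DC3. Monocyte and macrophage markers (10 genes) summed to 8673 to 26039 CPM in TLI DC1b and to 3100 and 5145 CPM in untreated DC1b. Their sums were 5701 to 12614 CPM in TLI DC2, 534 to 1622 CPM in TLI DC1a and 1326 to 3507 CPM in TLI DC3.

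The mean level of each of the 7 receptors was lowest in DC2 cells in both treatments. Xcr1, Clec9a, Cd207, Ly75 and Btla had their highest mean in DC1a in both treatments, Cd24a had it in DC3, and Cadm1 in DC1b of untreated and DC1a of TLI mice. In untreated mice, edgeR's quasi-likelihood test (adjusted p under 0.05 after Benjamini and Hochberg, over 19597 genes) called 3 of 7 lower in DC2 than in DC1a (Clec9a, Cd207 and Xcr1), against 1.05% of all genes tested. In TLI mice it called 7 of 7 lower, against 1.3% of all genes, although 3 of these calls were lost when single libraries were left out. The libraries of DC2 and DC1a did not overlap for any of the 7 in either treatment, against 48.4% of all genes in untreated and 14.7% in TLI mice. Between TLI and untreated mice it called 1 receptor in 1 subset, Clec9a, higher in DC2 cells of TLI mice. In sorted bulk samples, fewer cells of a type and less RNA per cell cannot be told apart. The p-values rest on a spread between libraries that the fit shared over all 8 groups, without a term for pool. In comparisons of untreated subsets the TLI libraries therefore enter this spread.

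**Figure D1:**
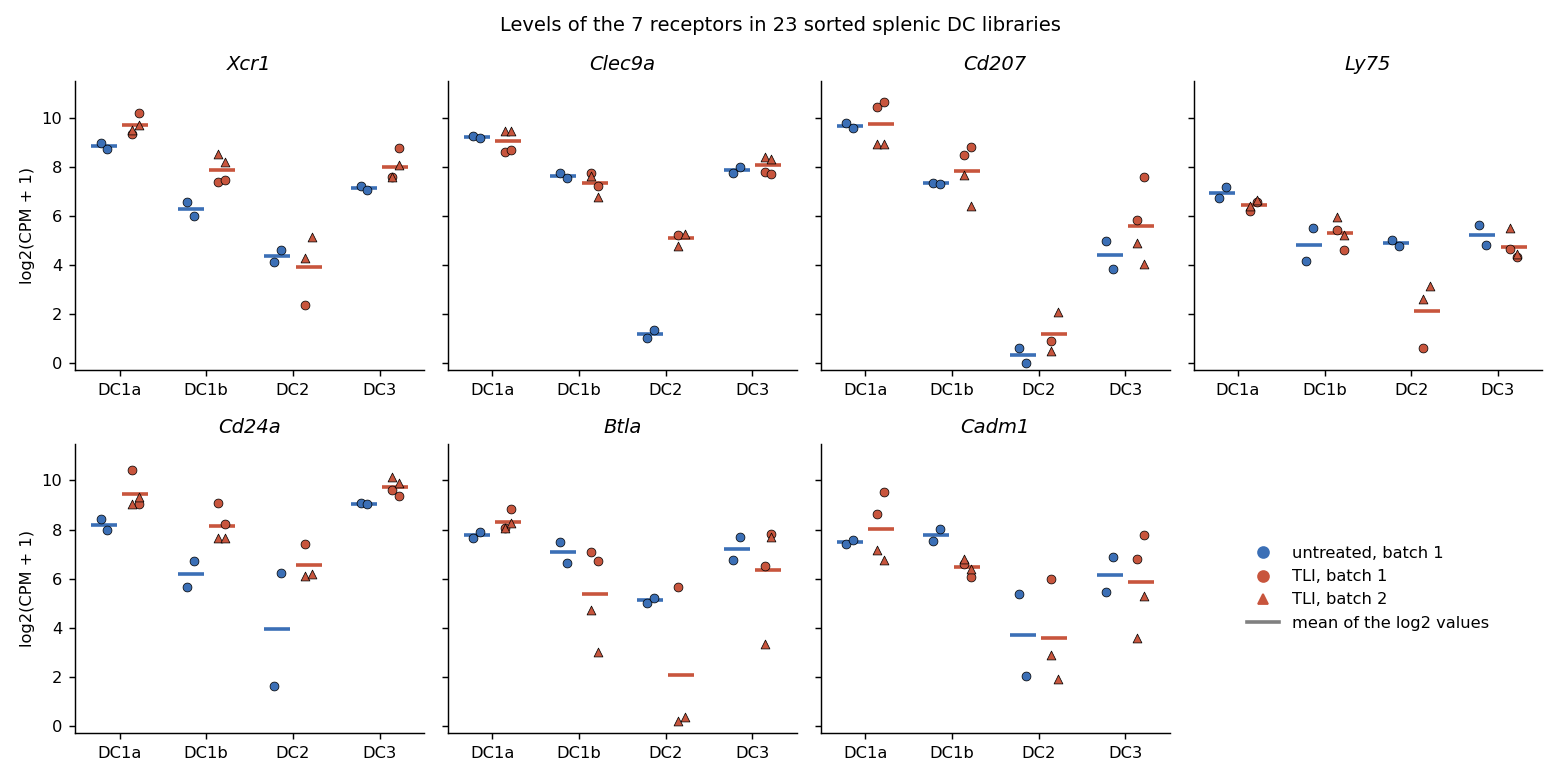
Levels of the 7 receptors, log2(CPM + 1), by subset, with 1 point per library, circles for batch 1, triangles for batch 2 and bars at the mean of the log2 values. Clec9a and Cd207 drop furthest in untreated DC2 cells, and Clec9a in DC2 cells lies at 0.993 and 1.5 CPM in untreated and between 25.9 and 37.5 CPM in TLI mice.

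Clec9a, the receptor for dying cells, had the smallest SE of the 7 in every comparison of subsets. Its level was 616 and 578 CPM in untreated DC1a, 213 and 186 CPM in DC1b, and 215 and 252 CPM in DC3. In untreated DC2 it was 0.993 and 1.5 CPM, or 26 and 32 reads. The DC2 libraries therefore lay far below the other 6 untreated libraries, and DC1a lay above DC1b and DC3 without overlap. DC2 was lower than DC1a by a log2 fold change of -8.90 ± 0.51 (SE, adjusted p = 5.67e-08), a 480-fold ratio of mean levels. It was lower than DC1b by -7.33 ± 0.48 (adjusted p = 2.27e-07), and DC3 was higher than DC2 by 7.55 ± 0.48 (adjusted p = 1.64e-07), all by edgeR's quasi-likelihood test. These 3 calls were made in each of 29 alternative fits, which changed the scaling, filter, test, terms or libraries. DC1b against DC1a gave -1.58 ± 0.37 and missed the threshold (adjusted p = 0.0533).

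In TLI mice Clec9a was at 391, 408, 706 and 703 CPM in DC1a of pools 1 to 4, and at 213, 148, 194 and 108 CPM in DC1b. It was at 36.0, 25.9 and 37.5 CPM in DC2 of pools 1, 3 and 4, and at 221, 206, 338 and 322 CPM in DC3. The order of the untreated mice, DC1a above DC3 above DC1b above DC2, was that of the TLI means too, although DC1b and DC3 overlapped at 206 to 213 CPM. Clec9a was lower in DC2 than in DC1a by -4.06 ± 0.32 on the log2 scale (adjusted p = 7.51e-07) and lower than in DC1b by -2.37 ± 0.30 (adjusted p = 0.00195). It was the only receptor called between DC1b and DC1a in TLI mice, where 0.204% of all genes were lower (log2 fold change -1.68 ± 0.26, adjusted p = 0.00167, edgeR). Without TLI DC1b pool 4, the library low in Cd8a, the value was -1.46 (adjusted p = 0.00491). Within batch 1 it was -1.15 (adjusted p = 0.237) and within batch 2 it was -2.23 (adjusted p = 0.00236), over a range of 1.08e-07 to 0.237 in 31 alternatives. All 7 receptors lay below 0 in this comparison of DC1b with DC1a. At an unadjusted p under 0.05 by edgeR were 5 of 7, against 2666 of 19597 genes.

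Cd207, langerin, had the largest ratio of DC1a to DC2 in both treatments. It reached 884 and 759 CPM in untreated DC1a, 161 and 158 CPM in DC1b and 30.2 and 13.4 CPM in DC3. In untreated DC2, 1 library had 14 reads (0.535 CPM) and the other had 0 reads. The 4 subsets did not overlap in untreated mice. DC2 lay below DC1a by a fitted -11.51 ± 1.54 (adjusted p = 0.000624) and below DC1b by -9.14 ± 1.42 (adjusted p = 0.0058, edgeR), values whose size depends on the few reads in DC2. In the DC2 against DC1b comparison 2 of 7 receptors were called lower, Cd207 and Clec9a, against 0.225% of all genes. The call for Cd207 was lost without untreated DC2 pool 2, the library with 0 reads (log2 fold change -8.21, adjusted p = 0.0537, over a range of 9.79e-16 to 0.0537 in 29 alternatives). DC3 was higher than DC2 by 6.27 ± 1.27 (adjusted p = 0.0241), with 2 of 7 receptors called higher, Cd207 and Clec9a, against 0.378% of all genes. That call was lost without untreated DC3 pool 1 (5.57, adjusted p = 0.103), without untreated DC2 pool 2 (5.34, adjusted p = 0.175), without a term for batch and in the 8 untreated libraries alone (1.21e-07 to 0.175 over 29 alternatives).

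Cd207 in TLI mice split by batch. DC1a held 1393 and 1578 CPM in pools 1 and 2 and 493 and 484 CPM in pools 3 and 4. DC1b held 357 and 443 CPM against 201 and 84.3 CPM, and DC3 held 56.0 and 193 CPM against 28.4 and 15.6 CPM. The pools of batch 1 lay above those of batch 2 in all 3 subsets. The term for batch in the fit over all subsets missed the threshold for Cd207 (adjusted p = 0.0773, edgeR). DC2 held 0.867, 0.402 and 3.26 CPM in pools 1, 3 and 4. It was lower than DC1a by -8.60 ± 1.11 (adjusted p = 0.00016), over a range of 3.93e-28 to 0.0181 in 31 alternatives. Within batch 2 the value was -8.06 (adjusted p = 0.0032). Within batch 1 it was -10.74, from 1 DC2 library, whose spread was taken from the other groups. DC3 was lower than DC1a by -3.94 ± 0.78 (adjusted p = 0.019), the only receptor of 7 called in that comparison, against 0.367% of all genes lower. That call did not hold within batch 1 (-3.57), within batch 2 (-4.47), without a term for batch (-3.75), or without TLI DC3 pool 1 (-3.76), 3 (-3.85) or 4 (-3.66), with adjusted p from 7.5e-07 to 0.518 over 31 alternatives.

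Ly75, the endocytic lectin DEC-205, was called in no comparison of untreated subsets. It was at 105 and 142 CPM in DC1a, 16.6 and 43.8 CPM in DC1b, 31.5 and 26.3 CPM in DC2 and 48.1 and 27.1 CPM in DC3. DC1a lay above the 3 other subsets, which overlapped each other. In TLI mice it was at 72.4 to 99.4 CPM in DC1a, 23.6 to 61.4 CPM in DC1b and 18.9 to 44.0 CPM in DC3. In TLI DC2 it was at 0.512, 5.02 and 7.75 CPM, below every other library of the series. DC2 was lower than DC1a by -4.69 ± 0.68 on the log2 scale (adjusted p = 0.000498) and lower than DC1b by -3.54 ± 0.64 (adjusted p = 0.0243, edgeR). The second call was lost with the pool as a block (-3.51, adjusted p = 0.0972) and without untreated DC1a pool 2 (-3.54, adjusted p = 0.0507), TLI DC1b pool 3 (-3.42, adjusted p = 0.0622) or TLI DC2 pool 3 (-3.60, adjusted p = 0.119), over a range of 1.94e-08 to 0.119 in 31 alternatives. Gm13571, whose exons overlap those of Ly75, was at 0 to 0.764 CPM in the DC2 libraries and at 0 to 19.7 CPM in the others.

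Xcr1, the chemokine receptor, had its highest level in DC1a and its lowest in DC2 of untreated mice. It was at 504 and 427 CPM in DC1a, 146 and 131 CPM in DC3, 94.6 and 61.8 CPM in DC1b and 16.3 and 23.2 CPM in DC2. No subset overlapped another. DC2 was lower than DC1a by -4.56 ± 0.72 on the log2 scale (adjusted p = 0.00232, edgeR), a 23.6-fold ratio, and without untreated DC2 pool 1 the call was lost (-4.33, adjusted p = 0.0535, over a range of 6.11e-10 to 0.0535 in 29 alternatives). DC1b against DC1a gave -2.57 ± 0.66 (adjusted p = 0.0843) and DC3 against DC2 gave 2.81 ± 0.66 (adjusted p = 0.0585), neither past the threshold.

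In TLI mice Xcr1 was at 651, 1168, 734 and 841 CPM in DC1a, 165, 175, 363 and 292 CPM in DC1b and 192, 435, 192 and 265 CPM in DC3 of pools 1 to 4. It was at 4.14, 18.5 and 34.1 CPM in DC2 of pools 1, 3 and 4. DC1a lay above all other libraries and DC2 below them, while DC1b and DC3 overlapped. DC1b against DC1a gave -1.86 ± 0.46 and narrowly missed the threshold (adjusted p = 0.0537, edgeR), and it was called in 7 of 31 alternatives. DC2 was lower than DC1a by -5.70 ± 0.62 (adjusted p = 2.77e-05) and lower than DC1b by -3.85 ± 0.56 (adjusted p = 0.005, edgeR), and both calls held in each of 31 alternatives. In that comparison of DC2 with DC1b, 4 of 7 receptors were called lower (Xcr1, Clec9a, Cd207 and Ly75), against 0.184% of all genes. The same 4 receptors were higher in DC3 than in DC2, against 0.439% of all genes, by 4.08 ± 0.58 for Xcr1 (adjusted p = 0.00101), 3.04 ± 0.31 for Clec9a (adjusted p = 4.2e-05), 4.66 ± 0.95 for Cd207 (adjusted p = 0.0164) and 2.93 ± 0.62 for Ly75 (adjusted p = 0.0218). With the pool as a block Ly75 missed the threshold there (2.89, adjusted p = 0.071). Without TLI DC2 pool 3, the DC2 library low in Sirpa, Clec9a and Xcr1 kept their calls in both comparisons, and Ly75 and Cd207 lost theirs. The values for DC3 minus DC2 were then 3.00 for Ly75 (adjusted p = 0.0752) and 4.25 for Cd207 (adjusted p = 0.0724), and Cd207 gave -6.35 for DC2 minus DC1b (adjusted p = 0.0514). The DC3 minus DC2 calls were also lost without TLI DC2 pool 1 (2.22 for Ly75, adjusted p = 0.0526, and 3.87 for Cd207, adjusted p = 0.0696) and, for Ly75, without TLI DC3 pool 3 (2.72, adjusted p = 0.0895). Over 31 alternatives the adjusted p for DC3 minus DC2 ran from 4.73e-06 to 0.0895 for Ly75 and from 3.82e-08 to 0.168 for Cd207, and that of Cd207 for DC2 minus DC1b from 7.89e-17 to 0.285.

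Cd24a, the lipid-anchored glycoprotein, had its highest mean in DC3 and not in DC1a. In untreated mice it was at 535 and 521 CPM in DC3, 341 and 249 CPM in DC1a, 49.1 and 105 CPM in DC1b and 2.1 and 74.4 CPM in DC2. DC3 lay above DC1a in both pools, but the difference missed the threshold (adjusted p = 0.886, with a 95% interval of -0.92 to 2.60 on the log2 scale), and so did DC3 against DC2 (3.79 ± 1.00, adjusted p = 0.0947, edgeR). In TLI mice it was at 785, 658, 1132 and 942 CPM in DC3, 1367, 531, 531 and 650 CPM in DC1a and 541, 297, 203 and 200 CPM in DC1b. TLI DC2 was at 170, 67.3 and 70.9 CPM. The library with 1367 CPM, TLI DC1a pool 1, also held 129221 CPM of erythroid markers, and TLI DC1b and DC2 of pool 1, the highest of their groups, held 69412 and 44273 CPM. In TLI DC3 the order was another: pool 1, with 138273 CPM of erythroid markers, had Cd24a at 785 CPM, below pools 3 and 4 at 1132 and 942 CPM, which held 352 and 664 CPM of these markers. The part of erythroid RNA in these levels was not tested. DC3 against DC2 in TLI mice gave 3.18 ± 0.77 and missed the threshold (adjusted p = 0.0524, edgeR).

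Btla and Cadm1, the inhibitory and the adhesion receptor, differed widely between pools in TLI mice. Btla was at 199 and 237 CPM in untreated DC1a, 178 and 99.1 CPM in DC1b, 107 and 206 CPM in DC3 and 31.4 and 36.0 CPM in DC2. Cadm1 was at 171 and 189 CPM in untreated DC1a, 186 and 262 CPM in DC1b, 42.6 and 116 CPM in DC3 and 40.3 and 3.08 CPM in DC2. DC1a and DC1b overlapped for Cadm1. The untreated DC1b libraries held plasmacytoid DC markers at 5210 CPM or more in sum, whose part in the level was not tested. DC2 lay below DC1a for both, without a call. In TLI mice Btla was at 263 to 459 CPM in DC1a, at 133, 104, 25.4 and 6.99 CPM in DC1b, at 89.2, 224, 8.94 and 209 CPM in DC3 and at 48.7, 0.144 and 0.282 CPM in DC2. Cadm1 in TLI DC1a was at 396 and 746 CPM in batch 1 and at 143 and 107 CPM in batch 2, and in TLI DC3 at 111 and 218 CPM against 10.9 and 37.9 CPM. Batch 1 lay above batch 2 in both. In TLI DC1b the batches overlapped, at 96.1 and 65.1 CPM in batch 1 and 110 and 82.6 CPM in batch 2, and TLI DC2 was at 61.7 CPM in its 1 library of batch 1 and at 6.43 and 2.7 CPM in batch 2. Cadm1 was the only receptor of 7 called for batch (-2.09 ± 0.59, adjusted p = 0.0216), against 17.4% of all genes.

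Of the 7 receptors lower in DC2 than in DC1a of TLI mice, Xcr1, Clec9a, Cd207 and Ly75 passed in each of 31 alternatives. Cadm1 (-4.04 ± 0.94, adjusted p = 0.0229) missed the threshold in 6 of them, Cd24a (-2.87 ± 0.76, adjusted p = 0.0466) in 24 and Btla (-5.66 ± 1.51, adjusted p = 0.0489, edgeR) in 23. Leaving out single libraries left 4 to 6 receptors past the threshold, and none of these fits kept all 7. With the pool as a block, Btla (-6.26, adjusted p = 0.0915) and Cadm1 (-3.95, adjusted p = 0.0731) missed it. Cadm1 also missed it without TLI DC1a pool 2 (-3.81), TLI DC2 pool 3 (-3.89) or TLI DC2 pool 4 (-3.59), and Cd24a and Btla without most single libraries. Over the alternatives the adjusted p ran from 6.85e-06 to 0.492 for Cadm1, from 0.00066 to 0.654 for Cd24a and from 3.16e-06 to 0.603 for Btla. The direction was the same for all 7 in every alternative.

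**Figure D2:**
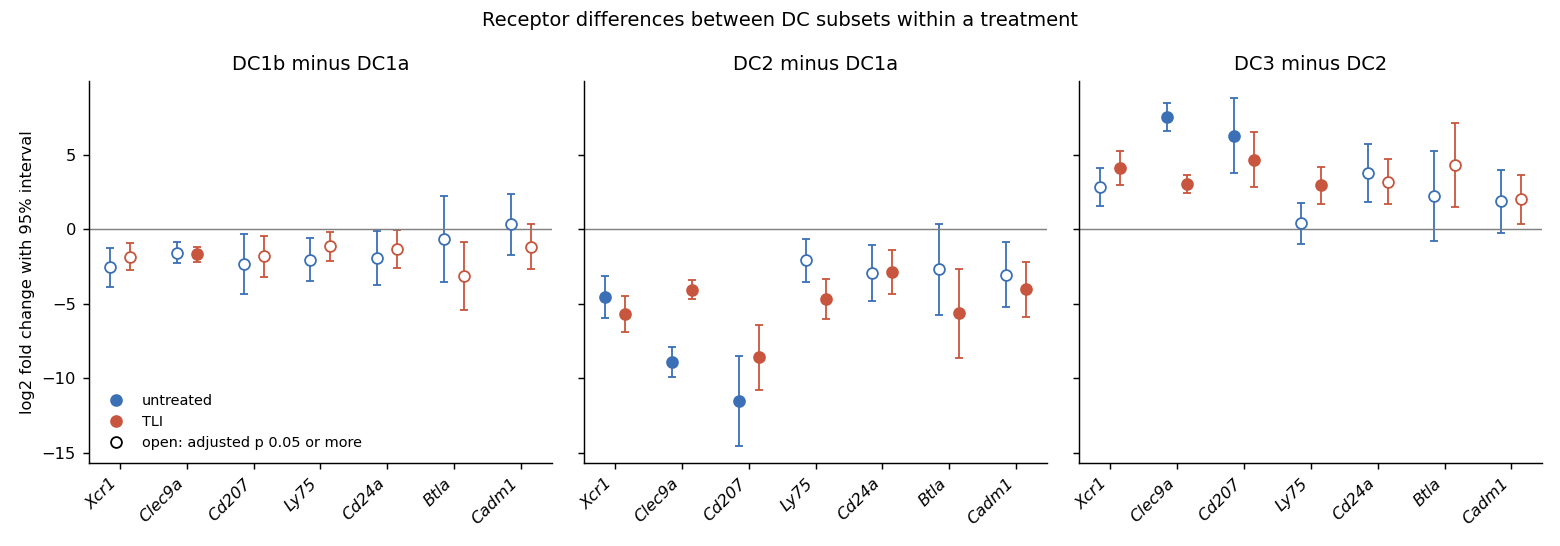
Log2 fold changes with 95% intervals for 3 pairs of subsets, untreated in blue and TLI in red, filled where the adjusted p was under 0.05. All 7 receptors lie below 0 for DC2 minus DC1a in both treatments, with Clec9a at -8.90 in untreated and -4.06 in TLI mice.

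Between DC1b and DC1a of untreated mice, 0 of 7 receptors passed the threshold by edgeR, against 0.837% of all genes. At an unadjusted p under 0.05 were 4 of 7, against 2104 of 19597 genes. DESeq2 called 2 (Clec9a and Xcr1), and its share over all genes is not given here or below. Of the 7 values 6 lay below 0, all but that of Cadm1. Between DC3 and DC1a of untreated mice 0 of 7 passed by edgeR, against 0.184% of all genes. At an unadjusted p under 0.05 were 4 of 7, against 1464 of 19597 genes, and DESeq2 called 2. Cd207 had the largest difference there, -5.23 ± 1.17 (adjusted p = 0.0981, edgeR), from 821 CPM in DC1a to 21.8 CPM in DC3. DC3 against DC1b called 0 of 7 by edgeR in untreated mice (0.393% of all genes) and 0 of 7 in TLI mice (1.11% of all genes). At an unadjusted p under 0.05 were 2 in untreated mice, against 1652 of 19597 genes, and 3 in TLI mice, against 2319. DESeq2 called 2 in untreated and 1 in TLI mice. The 95% intervals of DC3 minus DC1b in untreated mice reached from -4.92 to -0.82 for Cd207 and from 0.91 to 4.64 for Cd24a on the log2 scale.

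The comparison of TLI with untreated mice was made within each subset. Clec9a in DC2 was at 0.993 and 1.5 CPM in untreated mice and at 36.0, 25.9 and 37.5 CPM in TLI mice, so that all TLI libraries lay above all untreated ones, against 25.0% of all genes without overlap between these groups. The difference was 4.56 ± 0.42 on the log2 scale (adjusted p = 4.65e-05, edgeR), a 26.6-fold ratio of mean levels. It was the only receptor of 7 called in DC2, where 0.0612% of all genes were called and 0.0408% were higher. It was 4.72 without TLI DC2 pool 3 (adjusted p = 4.28e-05). In the batch 1 libraries alone it was 4.90, from 1 TLI DC2 library, whose spread was taken from the other groups. With the pool as a random block in limma voom it was 4.31 and missed the threshold (adjusted p = 0.141), over a range of 5.16e-23 to 0.141 in 29 alternatives. That fit also changed the test from edgeR to limma voom, and its correlation within pools was 0.00267. The block and the test were not changed separately. Neutrophil markers (8 genes) summed to 100 to 2138 CPM in TLI DC2 and to 1.45 and 1.78 CPM in untreated DC2, and T-cell markers (8 genes) to 9.27 to 160 CPM against 0.421 and 2.41 CPM, with 0 of 8 called in each list. Of the 8 B-cell markers 1 was called higher, Cd79b, at 15.9 to 58.0 CPM against 0 and 0.191 CPM, and their sums of 17.7 to 106 and 10.5 to 23.7 CPM overlapped. Monocyte and macrophage markers (10 genes) summed to 5701 to 12614 CPM in TLI DC2 and to 4755 and 5310 CPM in untreated DC2, without overlap. The part of these cells in the level of Clec9a was not tested. Clec9a did not pass in the other subsets, where 95% intervals on the log2 scale ran from -0.93 to 0.35 in DC1a, from -1.01 to 0.23 in DC1b and from -0.59 to 0.70 in DC3.

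The change of Clec9a in DC2 differed from that in the other subsets by a test of the difference itself. The DC2 minus DC1a difference was 4.85 ± 0.48 higher on the log2 scale in TLI than in untreated mice (adjusted p = 0.000161), and the DC2 minus DC1b difference was 4.95 ± 0.49 higher (adjusted p = 0.000126). The DC3 minus DC2 difference changed by -4.51 ± 0.48 (adjusted p = 0.000416, edgeR). Clec9a was the only receptor of 7 called in each, where 0.0255%, 0.112% and 0.0357% of all genes were called, and the 3 calls held in each of 29 alternatives. The other 3 pairs of subsets called 0 of 7 by edgeR, against 0.0357% of all genes (DC1b minus DC1a), 0 (DC3 minus DC1a) and 0.0204% (DC3 minus DC1b). In these pairs 0 of 7 were at an unadjusted p under 0.05, against 1428, 778 and 1624 of 19597 genes, and DESeq2 called 0.

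The level in DC2 was also read as a share of that in DC1a. As a share of the DC1a mean, Clec9a in DC2 was 0.208% in untreated and 6.0% in TLI mice. Cd207 was 0.0326% and 0.153%, and Xcr1 was 4.24% and 2.23%. Ly75 was 23.3% and 5.08%, and its difference between TLI and untreated DC2 (-3.47 ± 0.75) missed the threshold by edgeR (adjusted p = 0.11), although its 2 groups did not overlap. Cd207 (3.71 ± 1.21, adjusted p = 0.372) missed it too, and its groups overlapped. DESeq2 called both. Of a list of 20 other cDC1 genes, Naaa alone was called between TLI and untreated DC2, where 0.0612% of all genes were called. Naaa, a lysosomal amidase, was higher in TLI DC2, at 53.7, 90.7 and 29.2 CPM against 4.7 and 10.4 CPM (3.44 ± 0.57, adjusted p = 0.0309, edgeR). Batf3 lay lower there without a call, at 105, 43.7 and 101 CPM against 158 and 125 CPM, and Tlr3 overlapped. Clec1b, which overlaps Clec9a, was at 19.5, 26.7 and 17.1 CPM in TLI DC2 and at 3.28 and 15 CPM in untreated DC2. In untreated DC2 pool 2, Clec1b at 15 CPM stood beside Clec9a at 1.5 CPM. The part of reads shared between these genes was not tested.

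**Figure D3:**
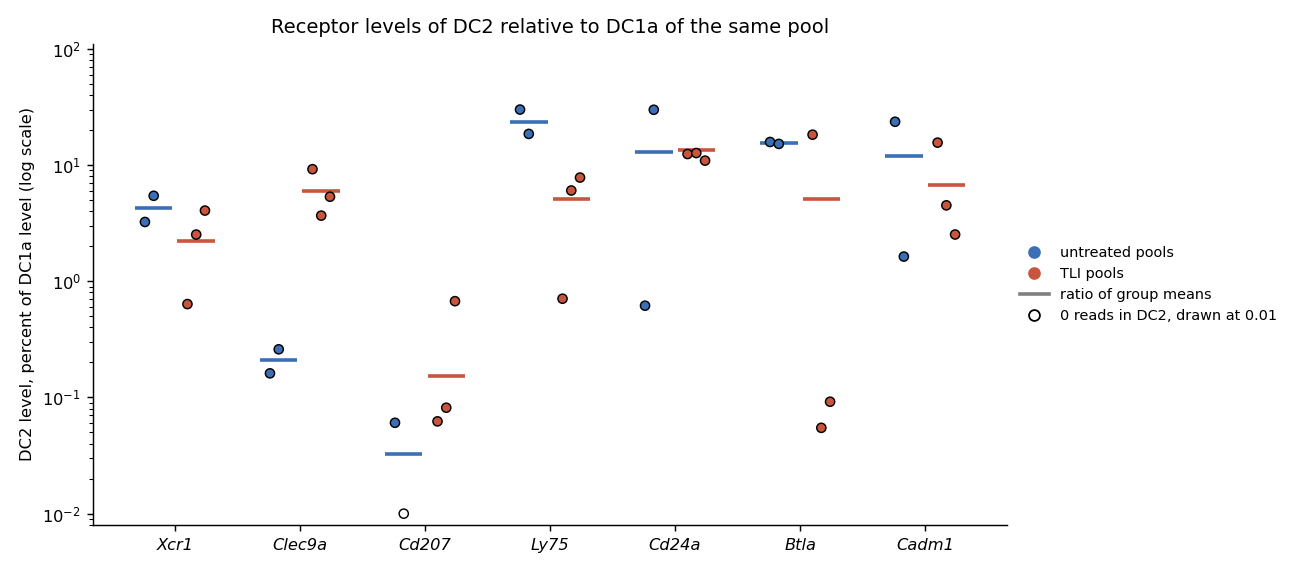
Level of each receptor in DC2 as a percent of the DC1a library of the same pool, on a log scale, with 1 point per pool and bars at the ratio of group means, and an open point for the pool with 0 reads. Clec9a is at 0.161 and 0.259 percent in untreated pools and between 3.67 and 9.21 percent in TLI pools, while Cd207 is at or below 0.674 percent in all 5.

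In DC1a, 0 of 7 receptors passed between TLI and untreated mice by edgeR, against 0.0102% of all genes. At an unadjusted p under 0.05 were 0, against 1891 of 19597 genes, and DESeq2 called 0. The mean level of Xcr1 was 848 ± 227 CPM (SD, n = 4) in TLI and 466 ± 54.4 CPM (SD, n = 2) in untreated DC1a, and that of Cd24a was 770 ± 402 and 295 ± 64.7 CPM. The intervals of the log2 differences, -0.43 to 1.79 for Xcr1 and -0.05 to 3.33 for Cd24a, leave room for large changes. In DC1b, 0 of 7 passed by edgeR, against 0.408% of all genes, and DESeq2 called 0. At an unadjusted p under 0.05 were 2, against 2410 of 19597 genes. These 2 were Cd24a (2.23 ± 0.88) and Xcr1 (1.39 ± 0.60). The groups did not overlap for 3 of 7 receptors, against 19.9% of all genes. Cd24a and Xcr1 were higher in TLI mice, and Cadm1 was lower, at a mean of 88.4 against 224 CPM. The fitted change of Cadm1 was 0.13 ± 1.02, with a batch term shared by all subsets, although its TLI DC1b batches overlapped. In DC3, 0 of 7 passed by edgeR, against 0.0255% of all genes, and DESeq2 called 0. At an unadjusted p under 0.05 was 1, Cd207 (2.1 ± 0.95), against 2020 of 19597 genes. The untreated pools were all in batch 1, so the term for batch in these comparisons rests on the TLI pools.

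**Figure D4:**
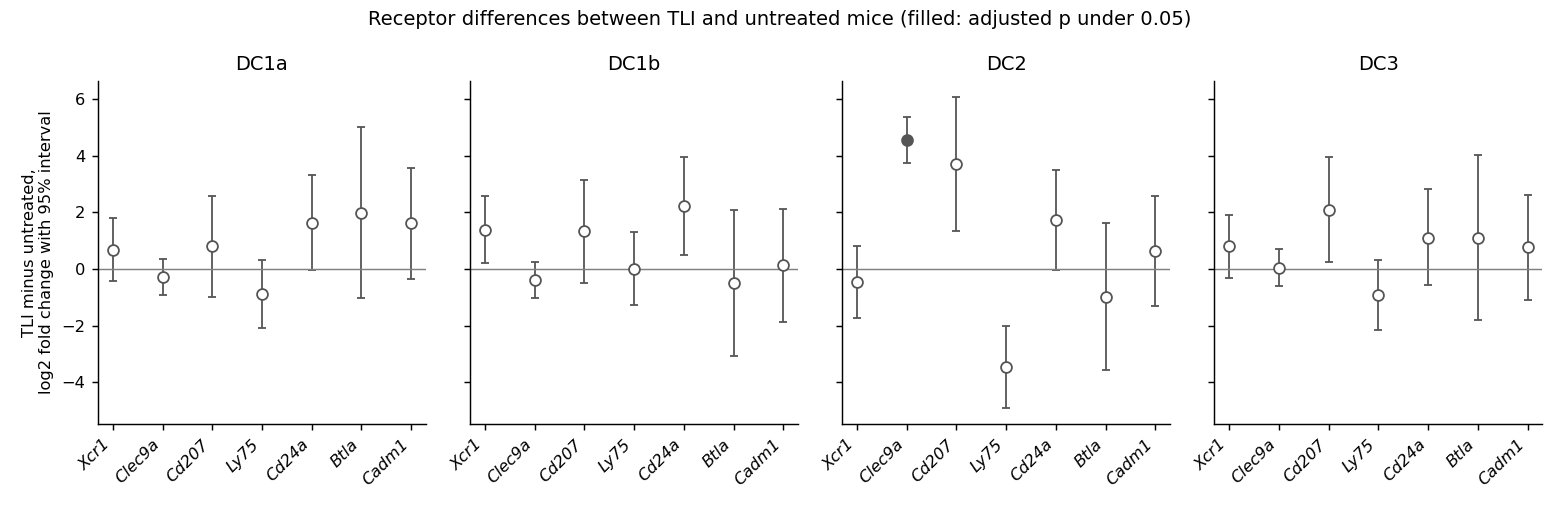
TLI minus untreated log2 fold changes with 95% intervals for the 7 receptors in each subset, filled where the adjusted p was under 0.05. Clec9a in DC2, at 4.56, is the single filled point.

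Levels were compared between receptors as CPM per kilobase of exon. In untreated DC1a, Cd207 was highest at 540 CPM per kilobase, followed by Clec9a at 181, Cd24a at 114, Xcr1 at 105, Btla at 64.3, Ly75 at 17.9 and Cadm1 at 17.2. Neighbours in this order overlapped between pools for Cd24a and Xcr1 and for Ly75 and Cadm1, and the others did not. In TLI DC1a the order was Cd207 at 649, Cd24a at 298, Xcr1 at 191, Clec9a at 168, Btla at 95.5, Cadm1 at 33.3 and Ly75 at 12.6 CPM per kilobase, where all neighbours overlapped between pools except Btla and Cadm1. In DC3 and DC2 of both treatments Cd24a had the highest mean, at 205 and 14.8 CPM per kilobase in untreated and 341 and 39.8 in TLI mice, although in untreated DC2 it ran from 0.814 to 28.8 and overlapped Btla. Cd207, highest in DC1a, was the lowest of the 7 in untreated DC2 at 0.176 CPM per kilobase. Summed over the 7 receptors, the level was 1039 ± 90.6 CPM per kilobase (SD, n = 2) in untreated DC1a, 279 ± 5.24 in DC1b, 36.0 ± 18.7 in DC2 and 380 ± 17.2 in DC3.

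**Figure D5:**
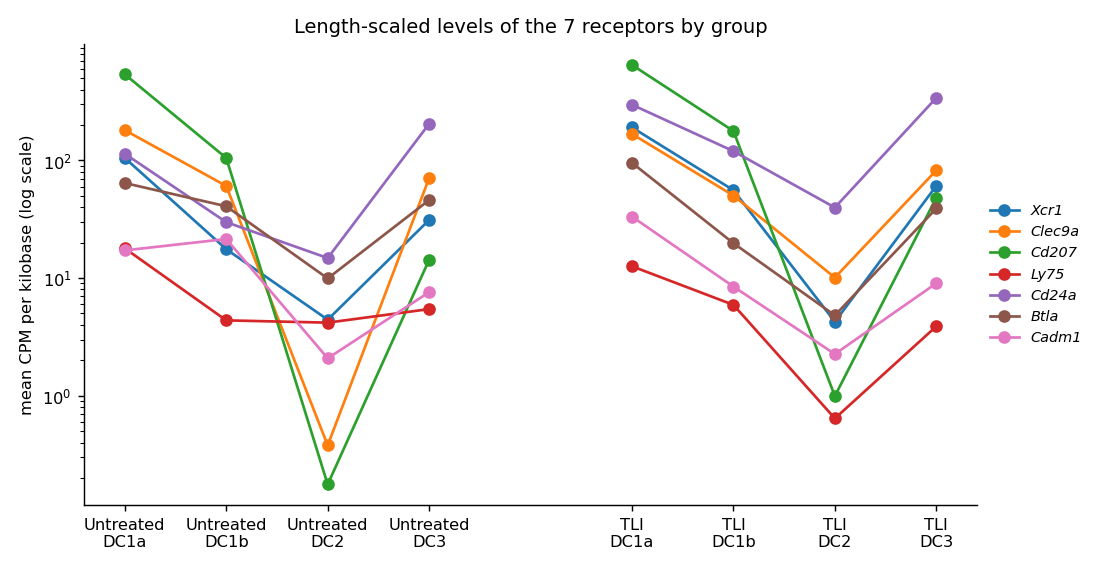
Mean CPM per kilobase of exon of the 7 receptors in the 8 groups, on a log scale, with lines joining the groups of a treatment. Cd207 goes from the highest in DC1a (540 in untreated mice) to the lowest in untreated DC2 (0.176), and Cd24a is highest in DC3 (205 in untreated and 341 in TLI mice).

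Across the 23 libraries the receptors varied together to different degrees, which is given as a description since libraries of a pool and of a subset are related. Pearson's r of log2 CPM was highest for Cd207 and Xcr1 (0.86), Cd207 and Clec9a (0.849) and Ly75 and Xcr1 (0.805), and lowest for Cd24a and Ly75 (0.283). These values include the differences between groups. For residuals from the group means, r for the same pairs was 0.153, -0.318, 0.633 and -0.209, in that order. The genes whose pattern was most like that of Clec9a were Gcsam (r = 0.931), Mpeg1 (0.923) and Hepacam2 (0.916). For Xcr1 they were Cst3 (0.924), Gm14597 (0.917) and Hebp2 (0.909), and for Cd207 Plpp1 (0.951), Ctla2b (0.896) and Gcsam (0.889). For Ly75 they were Xcr1 (0.805), Slc22a21 (0.776) and 2310031A07Rik (0.769), and for Cd24a Hepacam2 (0.912), Txndc15 (0.885) and Tlr11 (0.882). For Btla they were Jagn1 (0.907), Gpr171 (0.891) and Nudt14 (0.883), and for Cadm1 Cpq (0.848), Cdc6 (0.847) and Pdia5 (0.837). Of these 21 pairs of receptor and gene, 4 were also named by Spearman's rho and 2 by Pearson's r over the 8 group means.

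Other genes of cDC1 cells were read as a list of 20 that holds their transcription factors and endosomal proteins. In DC2 against DC1a, 9 of 20 were lower in untreated mice (median log2 fold change -3.38, against 0.11 over all genes) and 14 of 20 in TLI mice (median -3.08, against 0.02), and 0 were higher in either, against the 1.05% and 1.3% of all genes lower. In untreated mice 3 of the 20 values lay above 0. Against DC1b, 3 of 20 were lower in untreated DC2 (0.225% of all genes) and 6 lay above 0, and 4 of 20 were lower in TLI DC2 (0.184% of all genes). Batf3 was at 158 and 125 CPM in untreated DC2 and at 43.0 and 37.2 CPM in untreated DC1b. Gcsam, a signalling adaptor, went from 325 to 0.132 CPM in untreated mice (-11.25 ± 1.27, adjusted p = 0.000124), and Naaa from 807 to 7.54 CPM (-6.74 ± 0.65, adjusted p = 3.49e-05). Tlr3, the endosomal sensor of double-stranded RNA, went from 150 to 2.9 CPM (-5.69 ± 0.96, adjusted p = 0.00396). DC3 was higher than DC2 for 7 of 20 in untreated (0.378% of all genes) and 9 of 20 in TLI mice (0.439%), among them Irf8, at 807 against 16.7 CPM in untreated mice (5.60 ± 0.97, adjusted p = 0.00835, edgeR). DC1b was lower than DC1a for 3 of 20 in untreated mice, where 62 of 19597 genes were lower. These were Batf3 (-2.86 ± 0.45, adjusted p = 0.0038), Wdfy4, which is needed for cross-presentation (-2.70 ± 0.45, adjusted p = 0.00589), and Naaa (-2.57 ± 0.54, adjusted p = 0.0306). Irf8 went the other way without a call, at 913 and 779 CPM in untreated DC1b against 609 and 503 CPM in untreated DC1a. TLI against untreated called 0 of 20 in DC1a, DC1b and DC3 and 1 in DC2, Naaa.

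Of the general machinery of cross-presentation, 30 genes of antigen export, peptide loading, the phagosomal oxidase and vesicle traffic, at most 3 were called in 1 direction in any pair of subsets. In DC2 against DC1a, 2 of 30 were higher and 1 lower in untreated mice (median -0.05, against 0.11 over all genes), where 170 of 19597 genes were higher and 205 lower. In TLI mice 2 were higher and 2 lower (median -0.22, against 0.02), where 411 of 19597 genes were higher and 255 lower. Cybb, a subunit of the phagosomal NADPH oxidase, was among the higher genes, at 6.39 CPM in DC1a and 366 CPM in DC2 of untreated mice (5.84 ± 0.89, adjusted p = 0.00183, edgeR). Rab11a, which marks recycling endosomes, was lower in DC2 in both treatments (-1.56 ± 0.37 and -1.24 ± 0.29, adjusted p = 0.036 and 0.023). Of 15 ligands and signalling partners of the receptors, 1 was called in DC2 against DC1a in each treatment, Siglecg, a binding partner of CD24, which was higher, at 440 against 22.1 CPM in untreated mice (4.32 ± 1.05, adjusted p = 0.0441, edgeR). Tnfrsf14, the ligand of Btla, was at 0 to 50.6 CPM over the 23 libraries, and Xcl1, the ligand of Xcr1, was at 0 to 27.7 CPM outside DC3, where it was at 21.5 and 24.6 CPM in untreated and 0 to 480 CPM in TLI mice. NK-cell markers (8 genes) summed to 214 and 345 CPM in untreated DC3 and to 54.1 to 4070 CPM in TLI DC3, and their part in the level of Xcl1 was not tested.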

How the data were processed

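RNA of 23 sorted libraries was amplified with a SMARTseq kit, which does not mark strand, and sequenced. The authors trimmed reads with Trimmomatic, aligned them to GRCm38 with HISAT2 and quantified them with StringTie, tools that the submitters' processing notes name, and deposited 1 table of whole-number estimated counts per gene. The design had assumed plain counts, and the deposited values were used as they stood. Groups, pools and batches came from the labels. Symbols, exon lengths and overlaps came from a GRCm38 annotation.

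One fit was made in R 4.3.3 with edgeR 4.0.16 (glmQLFit, glmQLFTest) over all 23 libraries, with 8 groups and batch as terms, TMM scaling and filterByExpr, which left 19597 genes and all 7 receptors. P-values were adjusted after Benjamini and Hochberg over these genes, with a threshold of 0.05. The common biological coefficient of variation was 1.08. Intervals are 1.96 SE of this fit either way and include the spread between pools. The log2 CPM values used for correlations and for Dixon's limit had a prior count of 2. The fitted fold changes did not use it and kept edgeR's default. Total counts of 19256447 to 36997890 bear on the counting of reads only, and the floor of 3 counts covers counting error only. The paper reports a limited input of sorted cells per sample, amplified before sequencing, and the error of that step is not covered. The scripts were tested on simulated data.

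Pool numbers in the labels mark libraries of the same mice. Correlations of residuals from the group means between libraries of 1 pool were 0.0801 to 0.393 in TLI and -0.00585 to 0.0159 in untreated mice. These residuals still hold the batch difference, so the TLI values mix batch with pool. With batch in the fit, the consensus correlation within pools by limma was 0.00267. The pool was used as a block in an alternative fit. Other alternatives were DESeq2 1.42.0 size factors and Wald test, no filter, no batch term, subsets of the libraries, leaving out each library, and limma 3.58.1 with the pool as a random block for TLI against untreated.

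Receptors and gene lists were chosen with earlier results of these data known. Of each list other than the receptors, counts are given for those called and at most 4 genes a comparison are named, those with the largest fitted change among genes called with a mean of at least 5 CPM in 1 group. For likeness, the 3 genes with the highest Pearson r are named per receptor. A further result is not reported here.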

Additional observations from a re-analysis of the deposited data

Results flagged for a closer look

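The change of Clec9a between TLI and untreated mice differed between subsets by a test of the difference itself. The DC2 minus DC1a difference was 4.85 higher on the log2 scale in TLI mice, the DC2 minus DC1b difference was 4.95 higher, and the DC3 minus DC2 difference changed by -4.51, all from the same DC2 libraries, 2 untreated and 3 TLI. No other receptor showed such a difference by edgeR, and DESeq2 called 1 more, Ly75 for DC2 minus DC1b (-3.47 by edgeR, adjusted p = 0.287, with adjusted p of 0.00531 to 0.821 over 29 alternatives). No library lay beyond Dixon's limit for any receptor in 21 groups of receptor and TLI subset with 4 libraries, 0 of 21, where chance gives about 1 in 20.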

How the results depend on the processing

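Of the comparisons between subsets, 7 of 42 were called in untreated and 17 of 42 in TLI mice. The shares of all genes in the main fit are given with each comparison above. Those of the alternatives are not given, so a changed count cannot be read as particular to the receptors. The untreated count was 12 without the filter on low counts and 20 by DESeq2. The TLI count was 11 without a batch term, 26 by DESeq2 and 9 with the TLI pools of batch 1 only. Leaving out 1 library gave 6 to 9 in untreated and 10 to 18 in TLI mice, the 10 without TLI DC2 pool 3. Between TLI and untreated mice 1 of 28 was called, with 3 by DESeq2, 0 with the pool as a random block in limma voom, and 1 to 2 without single libraries, the 2 without untreated DC2 pool 2, which adds Cd24a in DC2. The count of differences between treatments in the subset contrasts was 3 of 42 and stayed 3 without any single library. With the pool as a replicate block the counts were 7, 13 and 3, and it changed no call beyond those named with the receptors. Where an alternative left 1 library in a group, as without either untreated pool or for TLI DC2 in batch 1, that library was assumed to vary like the other groups. The causes were not tested.

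For single receptors, 943 values from leaving out 1 library gave 869 with the same direction and call, 59 that lost and 15 that gained a call, and 284 values from the other settings gave 234, 29 and 21. None changed direction. DESeq2 size factors moved the median of all genes by at most 0.09 on the log2 scale. With the longest transcript as length, 3 of 8 groups kept the order of receptors per kilobase. With 2 untreated pools per subset, receptors with few reads in DC2 are measured least firmly.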
